A study of Mus musculus with 12 samples.

Results

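Gata4, Gata6, Sox7, Sox17, Foxa2, Dab2 and Sparc are transcription factors and marker genes of the endoderm, and their RNA was followed here in mouse embryonic fibroblasts on the way to induced pluripotency. They were taken by gene name from the deposited read count table and make up 7 of its 24207 genes. Of the 7, 5 had enough reads to enter the test, which covered 14520 genes, while Sox17 with 3 reads in all and Foxa2 with 6 reads did not. The 12 libraries formed 4 groups of 3, all from C57BL/6 fibroblasts. Every group carried the lentiviral vectors FUW-M2rtTA and FUW-OSKM, from which doxycycline induces the reprogramming factors Oct4, Sox2, Klf4 and Myc (OSKM). The first group was induced and carried hairpins against Trim28 and Setdb1 (cells with both hairpins). The next was induced with the Trim28 hairpin alone. The induced controls had doxycycline and a scrambled hairpin, and the uninduced cells had the scrambled hairpin and no doxycycline. Culture lasted 7 days in medium for embryonic stem cells, over a layer of irradiated fibroblasts as feeders, and the labels give neither the age of the embryos nor whether feeder cells were removed before RNA was taken. Whether the replicates were separate cultures is not given in the labels, and p-values therefore reflect spread that may be technical.

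The endoderm lines the gut and forms organs such as liver and pancreas, and an earlier extraembryonic endoderm forms the yolk sac. In the mouse blastocyst, FGF4 from the epiblast acts through FGF receptors to maintain Gata6, and Gata4, Sox17 and Sox7 follow in the primitive endoderm. Dab2 and Sparc are later markers of that lineage, and Foxa2 marks visceral and definitive endoderm. None of the 7 is restricted to endoderm: GATA4 and GATA6 also act in heart and mesenchyme, SOX7 and SOX17 in blood vessels, and Dab2 and Sparc are expressed in fibroblasts.

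The libraries held 11906701 to 19191649 counted reads, with the fewest in replicate 2 of the induced controls, and 3 reads correspond to 0.15 to 0.243 CPM (counts per 1e6 counts, normalised by TMM). Trim28, the corepressor that the hairpin targets, had 106, 95.5 and 107 CPM in cells with both hairpins, 64, 52.2 and 59.1 CPM with the Trim28 hairpin, 361, 286 and 337 CPM in induced controls and 261, 266 and 221 CPM in uninduced cells. Setdb1, a histone H3 lysine 9 methyltransferase, averaged 63.1 ± 8.21 CPM in cells with both hairpins, 122 ± 1.36 CPM with the Trim28 hairpin, 81.2 ± 4.26 CPM in induced controls and 60.7 ± 4.28 CPM in uninduced cells (SD, n = 3 each). Relative to induced controls, both targets were lower with both hairpins, Trim28 by 1.67 on the log2 scale (adjusted p = 5.04e-09) and Setdb1 by 0.36 (adjusted p = 0.00363, edgeR), although Trim28 was 1.76-fold higher there than with the Trim28 hairpin alone. The groups also differed in marker sums: 8 pluripotency markers summed to 43.7 to 68.2 CPM with both hairpins, 96.9 to 109 CPM with the Trim28 hairpin, 110.1 to 149 CPM in induced controls and 0.125 to 0.647 CPM in uninduced cells.

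**Figure D1:**
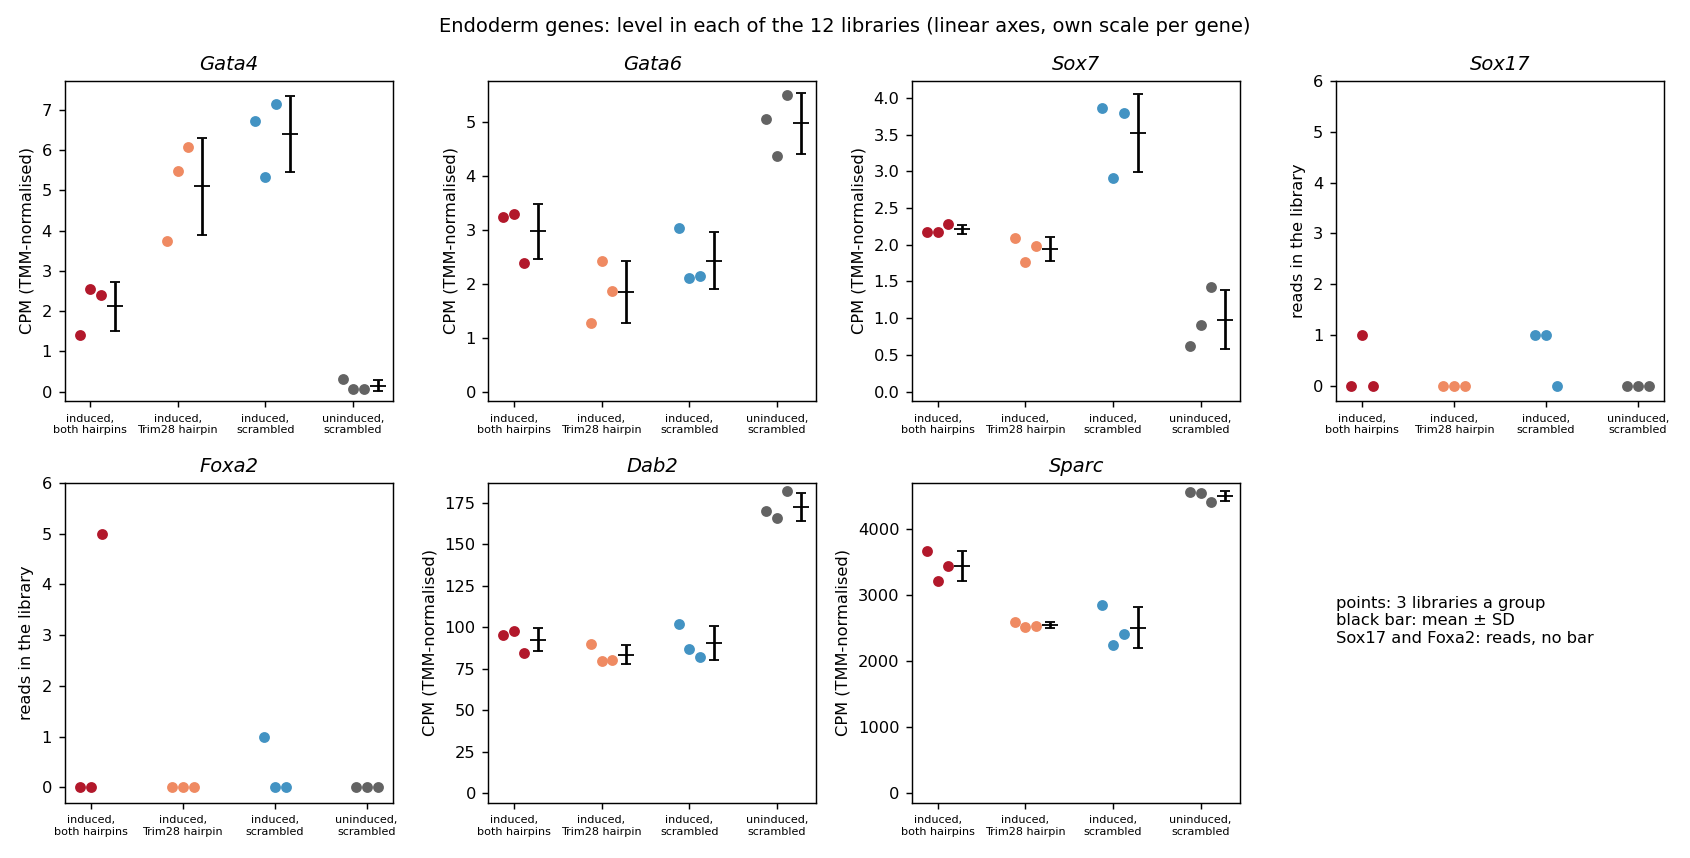
Level of each endoderm gene in every library, in CPM normalised by TMM or, for Sox17 and Foxa2, in reads. Points are the 3 libraries of a group and black bars the mean ± SD. Gata4 and Sox7 lie lowest in uninduced cells, whereas Gata6, Dab2 and Sparc lie highest there, and Sox17 and Foxa2 stay at 0 to 5 reads in every library.

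Gata4 (ENSMUSG00000021944, chromosome 14, 63198922 to 63271692, as the deposited table gives these positions without naming its build), a zinc finger factor of heart, gonad and endoderm, was almost without reads in uninduced cells and present in every induced library. It had 24, 47 and 41 reads with both hairpins (1.41, 2.55 and 2.39 CPM), 59, 93 and 104 reads with the Trim28 hairpin (3.74, 5.49 and 6.07 CPM), 115, 66 and 143 reads in induced controls (6.72, 5.34 and 7.15 CPM) and 5, 1 and 1 reads in uninduced cells (0.312, 0.0643 and 0.0647 CPM). The 3 groups of induced libraries lay above all uninduced libraries, those with both hairpins lay below the other two induced groups, and the Trim28 hairpin and control libraries overlapped. Induced controls exceeded uninduced cells by 5.37 ± 0.40 on the log2 scale (SE, adjusted p = 6.26e-09, edgeR quasi-likelihood test with Benjamini-Hochberg adjustment over all tested genes), a 41.5-fold difference. Without uninduced replicate 1, which held 5 of the group's 7 reads, the log2 difference was 6.49. With both hairpins Gata4 fell by 1.60 ± 0.24 relative to induced controls (adjusted p = 7.69e-05), a 3.04-fold lower level, and by 1.27 ± 0.24 relative to the Trim28 hairpin alone (adjusted p = 0.00163). With the Trim28 hairpin alone the log2 difference from induced controls was -0.34 ± 0.21 (adjusted p = 0.274), and its 95% interval of -0.75 to 0.08 holds both 0 and a sizeable fall. In order, Gata4 was highest in induced controls, then with the Trim28 hairpin, with both hairpins and in uninduced cells, and only the first pair of neighbours did not differ beyond their spread.

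Gata6 (ENSMUSG00000005836), which acts upstream of Gata4 in the mouse primitive endoderm, ran the other way on induction. It had 55, 61 and 41 reads with both hairpins (3.23, 3.3 and 2.39 CPM), 20, 41 and 32 reads with the Trim28 hairpin (1.27, 2.42 and 1.87 CPM), 52, 26 and 43 reads in induced controls (3.04, 2.1 and 2.15 CPM) and 81, 68 and 85 reads in uninduced cells (5.06, 4.37 and 5.5 CPM). All uninduced libraries lay above all induced ones, and the 3 induced groups overlapped with each other. In induced controls Gata6 fell by 1.02 ± 0.21 on the log2 scale relative to uninduced cells (adjusted p = 0.000502), a 2.03-fold lower level. Its differences from induced controls were 0.29 ± 0.23 with both hairpins (adjusted p = 0.341, 95% interval -0.16 to 0.73) and -0.39 ± 0.24 with the Trim28 hairpin (adjusted p = 0.274, 95% interval -0.87 to 0.09), and neither passed. Between the hairpin groups, Gata6 was 0.68 ± 0.23 higher with both hairpins (adjusted p = 0.0499), at the edge of the threshold with overlapping libraries. That call was lost in 8 of 13 other settings, with adjusted p between 0.0205 and 0.195, and with the replicate number as a block it was 0.0605. A long noncoding RNA gene, 1010001N08Rik, overlaps Gata6 and had 4 reads with both hairpins, 1 with the Trim28 hairpin, 4 in induced controls and 9 in uninduced cells. Since no use of strand in counting is stated, reads of the overlap cannot be assigned to either gene.

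Sox7 (ENSMUSG00000063060, chromosome 14, 63943674 to 63950732), a SoxF factor of extraembryonic endoderm and endothelium, was highest in induced controls. It had 37, 40 and 39 reads with both hairpins (2.18, 2.17 and 2.28 CPM), 33, 30 and 34 reads with the Trim28 hairpin (2.09, 1.77 and 1.98 CPM), 66, 36 and 76 reads in induced controls (3.86, 2.91 and 3.8 CPM) and 10, 14 and 22 reads in uninduced cells (0.624, 0.9 and 1.42 CPM). None of the 4 groups overlapped with another, although the values with both hairpins and with the Trim28 hairpin lay next to each other. Sox7 rose by 1.86 ± 0.24 on the log2 scale in induced controls relative to uninduced cells (adjusted p = 3.99e-06), a 3.62-fold higher level. Relative to induced controls it fell by 0.69 ± 0.20 with both hairpins (adjusted p = 0.0143) and by 0.87 ± 0.21 with the Trim28 hairpin (adjusted p = 0.00585). The first of these calls did not pass when replicate 3 of the induced controls was left out (adjusted p = 0.053). The difference between the hairpin groups was 0.18 ± 0.22 (adjusted p = 0.617, 95% interval -0.26 to 0.61). Sox7 was the only one of the 5 tested genes to pass in the Trim28 hairpin comparison, in which Gata4 did not, but the 2 genes' changes were not tested against each other.

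Sox17 (ENSMUSG00000025902, chromosome 1, 4490928 to 4496413), the SoxF factor that drives definitive endoderm and is also found in arteries, had 1 read with both hairpins, 0 with the Trim28 hairpin, 2 in induced controls and 0 in uninduced cells. The 0 reads allow levels of up to 0.0602 CPM with the Trim28 hairpin and up to 0.0638 CPM in uninduced cells, taking 3 reads over the group as the limit of counting error. Foxa2 (ENSMUSG00000037025, chromosome 2, 148042877 to 148046969), a forkhead factor of endoderm, node and floor plate, had 0, 0 and 5 reads with both hairpins, 1, 0 and 0 reads in induced controls and 0 in each library of the other groups. All 5 of its reads in the first group came from replicate 3. No difference between groups was detectable for either gene at these depths, and both were left out of the counts that follow.

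Dab2 (ENSMUSG00000022150, chromosome 15, 6299788 to 6440712), an endocytic adaptor that carries receptors of the LDL family into clathrin-coated pits, was lower in all induced groups. It had 95.3, 97.7 and 84.8 CPM with both hairpins, 90, 79.9 and 80.4 CPM with the Trim28 hairpin, 102, 86.8 and 82.4 CPM in induced controls and 170, 166 and 182 CPM in uninduced cells. The induced groups overlapped with each other and lay below every uninduced library. Dab2 fell by 0.93 ± 0.084 on the log2 scale in induced controls relative to uninduced cells (adjusted p = 6.28e-08), a 1.91-fold lower level. No difference among the induced groups passed: it was 0.04 with both hairpins against controls (95% interval -0.13 to 0.2), -0.11 with the Trim28 hairpin against controls (-0.28 to 0.05) and 0.15 between the hairpin groups (-0.02 to 0.32).

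Sparc (ENSMUSG00000018593, chromosome 11, 55394500 to 55420080), a secreted collagen-binding glycoprotein of basement membranes and connective tissue, was among the most abundant RNAs of every group and followed Dab2 on induction. It had 3672, 3208 and 3440.2 CPM with both hairpins, 2592, 2511 and 2527 CPM with the Trim28 hairpin, 2852, 2249 and 2418 CPM in induced controls and 4557, 4541 and 4409.8 CPM in uninduced cells. Libraries with both hairpins lay above all other induced libraries and below all uninduced ones, and the Trim28 hairpin and control libraries overlapped. Sparc fell by 0.85 ± 0.081 on the log2 scale in induced controls relative to uninduced cells (adjusted p = 1.29e-07), a 1.8-fold lower level. With both hairpins it rose by 0.46 ± 0.081 relative to induced controls (adjusted p = 0.00036), a 1.37-fold higher level, and by 0.44 ± 0.081 relative to the Trim28 hairpin alone (adjusted p = 0.00119). The Trim28 hairpin alone gave 0.02 ± 0.081 (adjusted p = 0.879, 95% interval -0.14 to 0.18). In these bulk samples, fewer cells of a type and less RNA per cell cannot be told apart, for Sparc as for the other genes.

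The spread in abundance among the 7 genes was wide. Per kilobase of exon in the GENCODE M21 annotation, Sparc averaged 908 ± 61.3 CPM per kb with both hairpins, 671 ± 11.3 with the Trim28 hairpin, 662 ± 82.1 in induced controls and 1189 ± 21.4 in uninduced cells (SD, n = 3 each). It ranked 22nd, 26th, 24th and 16th of 23882 genes in those groups and made up 0.233% to 0.431% of all counts. Dab2 averaged 12.6 ± 0.931, 11.4 ± 0.776, 12.3 ± 1.37 and 23.5 ± 1.15 CPM per kb in the same order of groups, and the 3 tested transcription factors stayed at or below 1.64 CPM per kb, the mean of Gata4 in induced controls. In induced controls the order of these factors per kilobase was Gata4, Sox7 and Gata6 (1.64 ± 0.242, 1.07 ± 0.16 and 0.374 ± 0.0808 CPM per kb). In uninduced cells it was Gata6, Sox7 and Gata4 (0.764 ± 0.0875, 0.298 ± 0.123 and 0.0377 ± 0.0366 CPM per kb).

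The bases upstream of the starts of Dab2 and Sparc are shown, as the tested members with an entry in the promoter table used. Gata4, Gata6, Sox7 and Sox17 had no matched entry. The sequences come from RefSeq on GRCm38.p6, run 5′ to 3′ on the gene's strand and end at the base before the start, and capitals mark a GATA motif.
Dab2, first start, chr15:6299539-6299788, plus strand: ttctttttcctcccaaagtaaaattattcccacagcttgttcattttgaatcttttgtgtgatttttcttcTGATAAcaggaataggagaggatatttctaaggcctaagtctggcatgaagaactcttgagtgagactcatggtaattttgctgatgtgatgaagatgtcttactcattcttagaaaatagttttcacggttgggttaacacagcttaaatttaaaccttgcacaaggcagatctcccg
Dab2, second start, chr15:6386498-6386747, plus strand: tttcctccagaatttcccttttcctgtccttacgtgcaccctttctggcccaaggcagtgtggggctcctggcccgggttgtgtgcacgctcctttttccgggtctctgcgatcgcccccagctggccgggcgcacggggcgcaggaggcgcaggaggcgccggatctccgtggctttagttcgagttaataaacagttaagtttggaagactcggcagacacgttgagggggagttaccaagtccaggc
Sparc, chr11:55420081-55420330, minus strand: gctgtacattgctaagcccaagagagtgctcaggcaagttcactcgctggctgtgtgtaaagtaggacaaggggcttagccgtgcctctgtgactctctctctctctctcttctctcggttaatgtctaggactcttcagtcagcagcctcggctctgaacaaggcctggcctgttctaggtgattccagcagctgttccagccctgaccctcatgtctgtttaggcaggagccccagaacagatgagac
The first Dab2 start had 2 CpG dinucleotides in these 250 bases and a GC content of 36.8%, and the second had 17 CpG and 60%. The Sparc start had 4 CpG and 54%, beside medians of 6 CpG and 52.4% GC over the 32851 promoters of the table. Among the windows shown, a GATA motif (the letters AGATAA, the letters AGATAG, the letters TGATAA or the letters TGATAG, on either strand) was found only as TGATAA from -179 to -174 of the first Dab2 start. Of all promoters 26.5% hold such a match. Neither gene's windows held a Sox motif (the letters ACAATG or the letters ACAATA, in 17.4% of promoters), a GC box (GGGCGG, in 32.7%) or a TATA box (TATAAA, in 12.4%). These are matches of letters, not measured binding. Read counts per gene do not tell which Dab2 start was used. Promoters of Foxa2 were also found in the table but are not printed, because the gene had almost no reads. The third of them held a GATA motif (AGATAA, -183 to -178), a GC box and a TATA box, and the second held GC boxes.

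**Figure D2:**
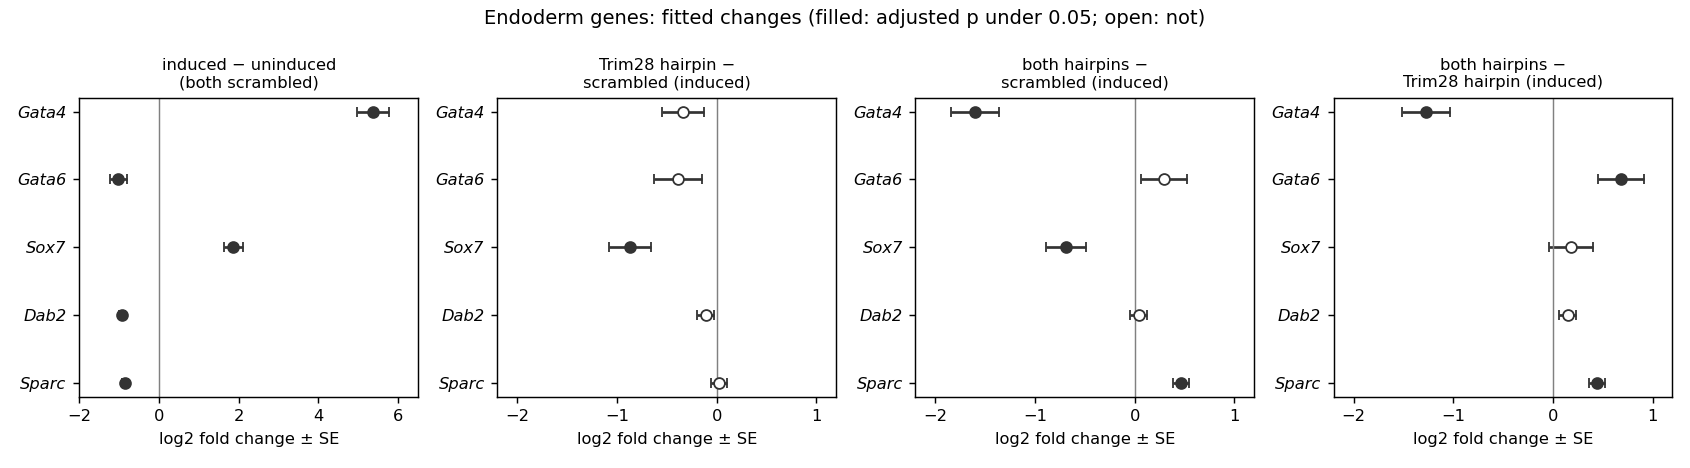
Fitted log2 fold change ± SE of the 5 tested endoderm genes in 4 comparisons, with filled points for adjusted p under 0.05 and open points for the others, and a wider axis in the first panel. On induction Gata4 and Sox7 lie right of 0 and the other 3 genes left of it, and with both hairpins Gata4 lies at -1.60 and Sparc at 0.46 against induced controls.

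Read against the whole transcriptome, the counts of members called were as follows. In induced controls against uninduced cells, 2 of the 5 tested genes rose and 3 fell, where 65.3% of all tested genes were called (32.7% rose and 32.7% fell). A count of 5 of 5 thus stands beside a background in which most genes were called, and the libraries of all 5 did not overlap between the groups, as for 64.6% of tested genes. With the Trim28 hairpin against induced controls, 1 of 5 fell and none rose by this test, beside a background of 24.9% (13.1% rose and 11.8% fell), and no further member had an unadjusted p under 0.05. Non-overlapping libraries were found for that gene alone among the 5, and for 38.9% of tested genes. With both hairpins against the same controls, 1 rose and 2 fell, beside a background of 36.7% (18.1% rose and 18.5% fell), and those 3 did not overlap, as for 45.1% of tested genes. With both hairpins against the Trim28 hairpin, 2 rose and 1 fell, beside a background of 21.7% (10% rose and 11.7% fell), and 3 did not overlap (Gata4, Sox7 and Sparc), as for 46.9% of tested genes. The hairpin groups also differed from uninduced cells in comparisons added after the values had been seen, to order the groups. There all 5 genes were called in the directions of the induced controls, beside 58.8% of genes with both hairpins (31.6% rose and 27.2% fell) and 66.6% with the Trim28 hairpin (34.1% rose and 32.6% fell). None of the 5 overlapped with uninduced cells in either, as for 65.6% of genes with both hairpins and 72.8% with the Trim28 hairpin. The comparisons share libraries and are not independent of one another.

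With both hairpins, the levels relative to uninduced cells were Gata4 3.77, Gata6 -0.74, Sox7 1.17, Dab2 -0.90 and Sparc -0.39 in log2 fold change. With the Trim28 hairpin they were 5.04, -1.41, 0.99, -1.05 and -0.82 for the same genes in that order. Without uninduced replicate 1, the Gata4 values were 4.89 with both hairpins and 6.15 with the Trim28 hairpin.

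Close relatives and cofactors of the factors were few among the tested genes. Of 7 paralogs (Gata1, Gata2, Gata3, Gata5, Sox18, Foxa1 and Foxa3), 2 were tested. Gata2, a blood and endothelial factor, averaged 46.1 ± 3.85 CPM with both hairpins, 72.4 ± 3.3 CPM with the Trim28 hairpin, 66.6 ± 6.05 CPM in induced controls and 21.9 ± 3.27 CPM in uninduced cells (SD, n = 3 each). It rose by 1.61 on induction (adjusted p = 1.05e-09) and fell by 0.53 with both hairpins relative to induced controls (adjusted p = 0.000511) and by 0.65 relative to the Trim28 hairpin (adjusted p = 0.000216). Gata3, a relative of trophoblast and T cells, passed in none of the 4 comparisons. Foxa3 did not enter the test but had 7 reads with both hairpins, 12 with the Trim28 hairpin, 40 in induced controls and 0 in uninduced cells, and is named here after its counts were seen. Among 3 tested GATA cofactors, 2 rose on induction, where 32.7% of all tested genes rose. With the Trim28 hairpin 1 fell, beside 11.8% of all tested genes. With both hairpins 1 rose against controls, beside 18.1%, and 2 rose against the Trim28 hairpin, beside 10%. The last count was 1 without replicate 2 of the cells with both hairpins or replicate 3 of the Trim28 hairpin cells. The FOG protein gene Zfpm2 rose by 0.39 with both hairpins relative to induced controls (22.1 ± 2.38 against 16.8 ± 2.1 CPM, adjusted p = 0.0113), and it did not pass without replicate 2 of the cells with both hairpins. Lmo2, a LIM protein of GATA complexes in blood cells, fell by 1.86 with the Trim28 hairpin (0.38 ± 0.187 against 1.38 ± 0.234 CPM in induced controls, adjusted p = 0.000408).

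Extraembryonic endoderm genes, a list of basement membrane, transport and signalling genes of that tissue, moved in both directions. The counts of this and the other lists stand beside the shares of all tested genes. On induction 32.7% rose and 32.7% fell, and with the Trim28 hairpin 13.1% rose and 11.8% fell. With both hairpins 18.1% rose and 18.5% fell against controls, and 10% rose and 11.7% fell against the Trim28 hairpin. Of 22 tested members, 9 rose, 9 fell and 4 did not pass in induced controls against uninduced cells, with a median log2 fold change of -0.07 beside -0.02 over all tested genes. Bmp2, a secreted signal, rose by 3.12 (16.9 ± 0.807 against 1.94 ± 0.404 CPM, adjusted p = 2.98e-11), and Thbd, the thrombomodulin of parietal endoderm and endothelium, fell by 1.59 (82 ± 6.18 against 247 ± 8.91 CPM, adjusted p = 1.07e-11). Pga5, a pepsinogen, was at 6.61 ± 0.813 CPM in induced controls and 0 reads in uninduced cells, at least 104-fold higher when 3 reads over the group are taken as the limit. Among the same genes, the Trim28 hairpin gave 1 rise, 9 falls and 12 without a call (median -0.07), among them Lamc1, a laminin chain, which fell by 0.87, and Pdgfra, a receptor of primitive endoderm and mesenchyme, which fell by 1.2 (113 ± 16.8 against 261 ± 41 CPM, adjusted p = 2.85e-06). With both hairpins against controls 10 rose, 6 fell and 6 did not pass (median 0.24), and against the Trim28 hairpin 10 rose, 1 fell and 11 did not pass (median 0.36), beside medians of 0 over all tested genes. Apob, the apolipoprotein of yolk sac and liver, rose by 1.39 with both hairpins relative to controls (19.9 ± 2.85 against 7.71 ± 1.81 CPM, adjusted p = 9.7e-06). Nid1, the basement membrane glycoprotein nidogen, rose by 0.47 in the same comparison (693 ± 40.9 against 499 ± 34.7 CPM, adjusted p = 6.49e-05). Fst, the activin antagonist follistatin, rose by 1.02 relative to the Trim28 hairpin (53.6 ± 4.75 against 26.4 ± 4.36 CPM, adjusted p = 1.37e-05). Uninduced fibroblasts also expressed Nid1 and Fst, at higher levels than cells with both hairpins (789 ± 30.7 and 84.7 ± 5 CPM). Apob was lower in uninduced cells (4.91 ± 0.17 CPM). Some markers of visceral endoderm were near 0 in all groups. Afp had 6, 5, 3 and 1 reads with both hairpins, with the Trim28 hairpin, in induced controls and in uninduced cells. In the same order Hnf4a had 3, 0, 0 and 0 reads and Apoa1 had 1, 6, 1 and 3. Other markers of the tissue were not silent. On induction Amn rose by 4.28 (1.76 ± 0.231 against 0.0838 ± 0.0951 CPM, adjusted p = 6.85e-06) and Lama1 by 2.99 (16.1 ± 2.43 against 2.01 ± 0.428 CPM, adjusted p = 2.76e-09). Cubn fell by 0.66 (3.33 ± 0.285 against 5.24 ± 0.679 CPM) and Pth1r by 1.31 (1.4 ± 0.219 against 3.48 ± 0.118 CPM).

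Definitive endoderm genes included epithelial genes that other epithelia and pluripotent cells also express. Of 8 tested, 6 rose and 2 fell on induction, with a median of 3.84, beside 32.7% of all tested genes called in each direction. Cdh1, the epithelial cadherin, rose by 5.81 (343 ± 40.6 against 6.11 ± 0.427 CPM, adjusted p = 2.62e-15), and Epcam, an epithelial adhesion molecule, was at 81.7 ± 12.7 against 0.0852 ± 0.0375 CPM. Eomes, a T-box factor that acts ahead of definitive endoderm, fell by 1.21 on induction (0.568 ± 0.144 against 1.28 ± 0.121 CPM, adjusted p = 0.00329). It rose by 1.69 with both hairpins relative to induced controls (1.78 ± 0.407 against 0.568 ± 0.144 CPM, adjusted p = 0.000328) and by 1.17 with the Trim28 hairpin (1.25 ± 0.321 CPM, adjusted p = 0.012). With both hairpins against controls 1 rose, 4 fell and 3 did not pass (median -0.52), and against the Trim28 hairpin none rose and 4 fell (median -0.23). The shares of all tested genes that fell there were 18.5% and 11.7%. Cldn6, a claudin of early epithelia, fell by 1.96 with both hairpins relative to controls (7.27 ± 0.332 against 28 ± 6.5 CPM, adjusted p = 2.42e-07). The counts with the Trim28 hairpin were 1 rise and 2 falls (median -0.27), and only 1 call was made without replicate 1 of that group or replicate 3 of the controls. The definitive endoderm factors Mixl1 and Cer1 had at most 2 reads in any group. Cxcr4 had 10 reads with both hairpins, 12 with the Trim28 hairpin, 15 in induced controls and 3 in uninduced cells. Other factors of the list were tested. On induction Hhex rose by 2.22 (0.598 ± 0.264 against 0.127 ± 0.0613 CPM, adjusted p = 0.00558), from few reads. Gsc fell by 0.75 (1.53 ± 0.749 against 2.61 ± 0.651 CPM, adjusted p = 0.0268), as Eomes did.

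**Figure D3:**
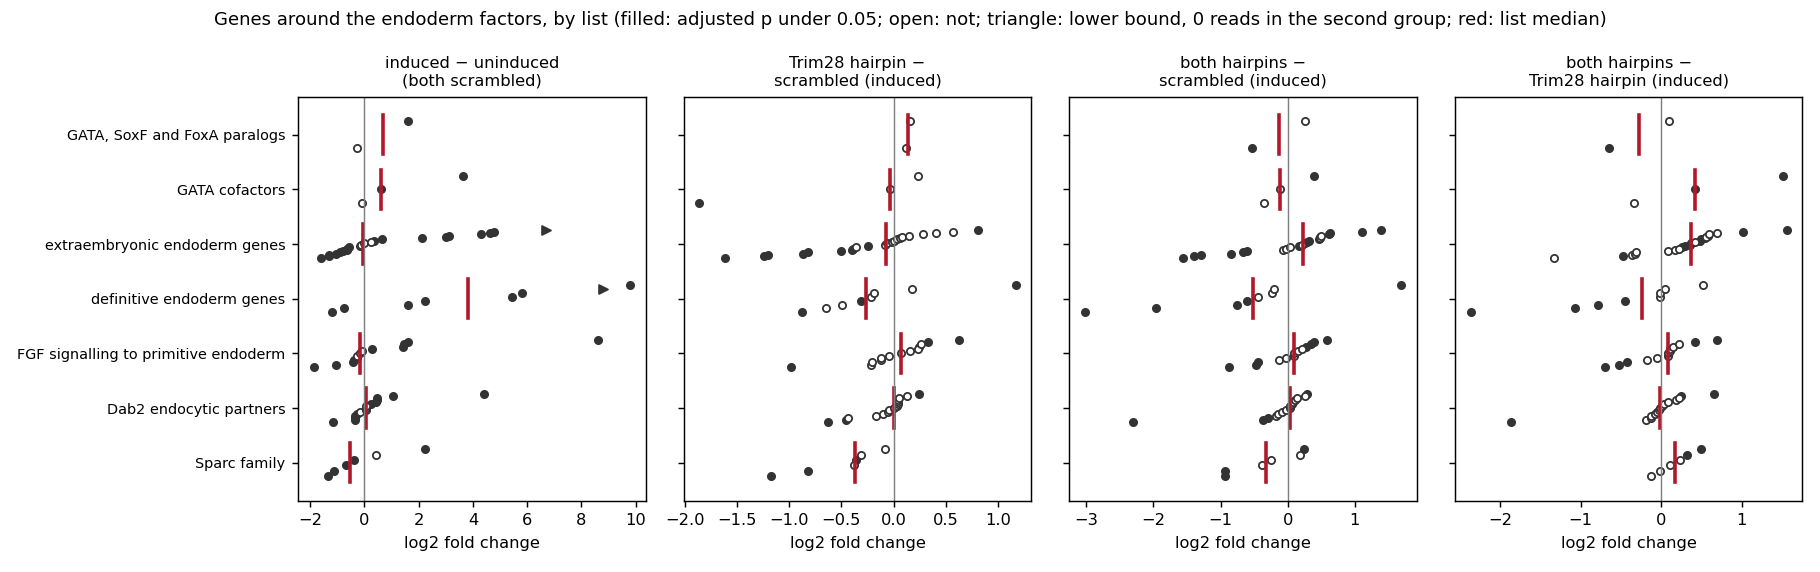
Log2 fold change of each tested gene of 7 lists around the endoderm factors, in 4 comparisons with their own axes. Filled points passed at adjusted p under 0.05, open points did not, triangles are lower bounds for genes with 0 reads in uninduced cells, and red bars are list medians. On induction the definitive endoderm median lies at 3.84 while the extraembryonic endoderm median lies at -0.07. The definitive endoderm list includes epithelial genes such as Cdh1 and Epcam, and 2 of its 8 tested genes, Eomes and Gsc, fell.

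The FGF pathway that maintains Gata6 in the blastocyst was also followed, through 13 tested genes. On induction 5 rose, 5 fell and 3 did not pass (median -0.16). Over all tested genes 65.3% were called on induction and 24.9% with the Trim28 hairpin. With both hairpins 36.7% were called against controls and 21.7% against the Trim28 hairpin. The ligand Fgf4 was at 11.1 ± 1.35 CPM in induced controls and had 1 read in uninduced cells. Among FGF receptor genes, Fgfr2 fell by 1.86 (27.1 ± 2.87 against 98.7 ± 4.17 CPM, adjusted p = 2.94e-10). The more abundant Fgfr1 fell by 0.29 (236 ± 40.7 against 288 ± 16 CPM, adjusted p = 0.0148), and Fgfr3 did not pass. Etv5, a transcription factor that FGF signalling induces, rose by 1.59 (131 ± 8.57 against 43.7 ± 1.88 CPM, adjusted p = 3.63e-12). The Trim28 hairpin gave 3 rises and 1 fall (median 0.07), and Spry4, a feedback inhibitor of the pathway, rose by 0.63. With both hairpins against controls 4 rose and 3 fell (median 0.1): Spry2, another inhibitor, rose by 0.58 (47.7 ± 3.78 against 31.8 ± 2.03 CPM) and Etv5 fell by 0.47 (94.9 ± 1.99 against 131 ± 8.57 CPM). Against the Trim28 hairpin 2 rose and 3 fell (median 0.09), with Spry4 lower by 0.53 and Spry2 higher by 0.70 with both hairpins.

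Partners of Dab2 in endocytosis changed on induction in both directions, with 6 rises, 5 falls and 4 without a call among 15 tested (median 0.05), beside 32.7% of all tested genes called in each direction. Vldlr, a receptor that Dab2 carries, fell by 1.16 (30.8 ± 2.71 against 68.7 ± 1.89 CPM, adjusted p = 1.04e-09), and Lrp8, a related receptor, rose by 1.05 (55.9 ± 3.69 against 27 ± 0.699 CPM, adjusted p = 1.48e-08). With the Trim28 hairpin 1 rose and 2 fell, with both hairpins against controls 1 rose and 3 fell, and against the Trim28 hairpin 2 rose and 1 fell, with medians of 0, 0.03 and -0.01. In the same order 24.9%, 36.7% and 21.7% of all tested genes were called. Vldlr was 1.58-fold higher with both hairpins than with the Trim28 hairpin (31.5 ± 0.657 against 19.9 ± 0.724 CPM, adjusted p = 3.34e-05). Of 6 tested relatives of Sparc, 1 rose and 4 fell on induction (median -0.54). Fstl1, a secreted glycoprotein of the family, fell by 0.69 on induction (1322 ± 115 against 2126 ± 58 CPM) and rose by 0.25 with both hairpins relative to controls (1567 ± 106 CPM, adjusted p = 0.0174). Spock3, a testican proteoglycan, rose by 2.25 on induction (11.5 ± 1.37 against 2.44 ± 1.09 CPM). In the family 3 fell with the Trim28 hairpin, and none passed without replicate 3 of that group. With both hairpins against controls 1 rose and 2 fell, and 1 was called without replicate 3 of the controls. Against the Trim28 hairpin 2 rose, and 1 passed when any of 5 libraries was left out.

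Markers of other cell types that express these genes moved as well, and their part in the results above was not tested. The 9 fibroblast markers, all with reads in every group, summed to 31603 to 34941 CPM with both hairpins, 25150.3 to 27204 CPM with the Trim28 hairpin, 25362 to 33812 CPM in induced controls and 43836 to 50618 CPM in uninduced cells. Of these, 2 rose and 6 fell on induction, 3 rose and 5 fell with the Trim28 hairpin, 3 rose and 3 fell with both hairpins against controls, and 5 rose and none fell against the Trim28 hairpin, where Sparc also rose. In these comparisons, in that order, 65.3%, 24.9%, 36.7% and 21.7% of all tested genes were called. Vim, the intermediate filament vimentin, rose by 0.72 with both hairpins relative to controls (4477 ± 345 against 2718 ± 249 CPM), and the fibronectin gene Fn1 fell by 1.2 on induction (8440.3 ± 729.5 against 19347 ± 1432 CPM). The collagen gene Col3a1 fell by 1.04 with both hairpins (1836 ± 275 against 3769 ± 701 CPM), in the comparison in which Sparc rose. Counts for the Trim28 hairpin were 4 or 5 calls without replicate 2 or 3 of that group or replicate 3 of the controls. Endothelial markers, which bear on Sox7 and Sox17, summed to 63.8 to 74.2 CPM with both hairpins, 93.6 to 99.2 CPM with the Trim28 hairpin, 76.7 to 89.1 CPM in induced controls and 44 to 46.3 CPM in uninduced cells, over 10 genes. Of 8 tested, 4 rose and 2 fell on induction, 3 rose with the Trim28 hairpin, 1 rose and 2 fell with both hairpins against controls, and 3 fell against the Trim28 hairpin. The defining endothelial gene Cdh5 had 11, 10, 3 and 1 reads with both hairpins, with the Trim28 hairpin, in induced controls and in uninduced cells. On induction the endothelial receptor gene Tek rose by 2.64 (46.6 ± 7.16 against 7.43 ± 0.875 CPM) and Erg fell by 2.04 (1.44 ± 0.56 against 6.2 ± 0.542 CPM). With the Trim28 hairpin Tie1, another receptor gene, rose by 0.93 (7.15 ± 0.517 against 3.73 ± 0.219 CPM), the largest rise of the 8. Their median there was -0.28, and 5 did not pass. Among those 5, Flt1 was at 21.1 ± 1.97 against 24.9 ± 3.53 CPM and Pecam1 at 0.64 ± 0.103 against 1.01 ± 0.191 CPM. Leaving out replicate 1 or replicate 3 of the controls reduced the 3 endothelial calls with the Trim28 hairpin to 1, and without replicate 2 of the controls the 3 calls with both hairpins were 5.

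Heart and smooth muscle markers, which bear on Gata4 and Gata6, summed to 44.4 to 52.7 CPM with both hairpins, 48.5 to 49.6 CPM with the Trim28 hairpin, 38.9 to 44.6 CPM in induced controls and 76.5 to 80.8 CPM in uninduced cells, over 10 genes. The cardiac factor Nkx2-5 had no read in any induced group and 2 in uninduced cells. Of 6 tested, 2 rose and 4 fell on induction, 3 rose and 1 fell with the Trim28 hairpin, 2 rose and 3 fell with both hairpins against controls, and 1 rose and 1 fell against the Trim28 hairpin. Over all tested genes the shares called were 65.3%, 24.9%, 36.7% and 21.7%, in that order. The 5 calls of both hairpins against controls fell to between 2 and 3 without replicate 2 or 3 of the cells with both hairpins or replicate 1 of the controls. Myh11, a smooth muscle myosin, was highest in uninduced cells, with 15.9 ± 2.41 CPM with both hairpins, 8.18 ± 0.641 CPM with the Trim28 hairpin, 4.9 ± 1.04 CPM in induced controls and 25.8 ± 4.06 CPM in uninduced cells. Tnnt2, a cardiac troponin, rose by 3.30 on induction (7.19 ± 1.57 against 0.728 ± 0.494 CPM) and by 1.32 with the Trim28 hairpin relative to induced controls (18 ± 3.76 CPM), and was at 8.5 ± 0.938 CPM with both hairpins, where it did not pass against controls. The cardiac factors Tbx5, Hand2 and Mef2c fell on induction, by 0.57 (12.4 ± 3.12 against 18.5 ± 1.85 CPM), 1.46 (3.08 ± 0.36 against 8.61 ± 0.45 CPM) and 0.95 (12.5 ± 1.22 against 24.2 ± 3.19 CPM). The 6 hepatocyte markers in the table summed to at most 0.257 CPM in any library. All 8 pluripotency markers rose on induction, with a median of 8.29, or 6.8 with the 5 genes that had no reads in uninduced cells at their lower bound. With both hairpins 7 of them fell relative to induced controls (median -1.23), in the comparison in which Gata4 fell. Under the Trim28 hairpin alone 4 fell and none rose (median -0.74), and with both hairpins against the Trim28 hairpin 1 rose and 4 fell (median -0.52).

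Gene by gene, the patterns most like those of the members were found by the smallest root mean square difference of centred log2 CPM over the 12 libraries, among 13115 tested genes. Nearest to Sparc was Arhgef25, a guanine nucleotide exchange factor, at a difference of 0.034, with 109 ± 7.33 CPM with both hairpins, 82.8 ± 2.56 CPM with the Trim28 hairpin, 79.4 ± 6.62 CPM in induced controls and 144 ± 1.69 CPM in uninduced cells. Next came Ltbr, the lymphotoxin beta receptor, at 0.057. Among the genes close to Dab2 was the homeobox gene Meis2 at 0.066, with 42.3 ± 3.51, 38.8 ± 1.29, 41.7 ± 4.19 and 77.7 ± 4.17 CPM in the same order of groups. The nearest genes to the less abundant factors were less close. They were Ryr1 (0.304) and Ankdd1b (0.322) for Gata4, Casp4 (0.216) and Brdt (0.225) for Gata6, and Vipr1 (0.144) and Cntrob (0.244) for Sox7. Ryr1, the calcium release channel of skeletal muscle, had 5.95 ± 1.29 CPM with both hairpins, 11.1 ± 2.04 CPM with the Trim28 hairpin, 16.2 ± 3.13 CPM in induced controls and 0.338 ± 0.153 CPM in uninduced cells. Gata4, Gata6 and Sox7 had 699, 605 and 437 reads in all, beside 21603 for Dab2 and 644081 for Sparc. Among the factors the distances did not follow the number of reads, and the reason for their size was not tested.

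Gata4 and Sox7 lie 671982 bases apart on chromosome 14, and the genes between them were examined after the values of both had been seen. The table lists 8 others in that interval, of which 5 were tested. Over all tested genes 32.7% rose on induction. With both hairpins 18.5% fell relative to induced controls and 11.7% relative to the Trim28 hairpin. On induction 2 rose, Fam167a by 0.89 (5.59 against 3.02 CPM, adjusted p = 0.00445) and Tdh, the threonine dehydrogenase of pluripotent cells, which had 35.9 CPM in induced controls and no reads in uninduced cells. With both hairpins 3 fell relative to induced controls: Fam167a by 0.81 (3.17 against 5.59 CPM, adjusted p = 0.0141), Tdh by 1.2 (15.6 against 35.9 CPM, adjusted p = 1.42e-06) and Mtmr9 by 0.32 (40.8 against 51 CPM, adjusted p = 0.00583). Xkr6 and Pinx1, nearest to Sox7, passed in neither comparison. With the Trim28 hairpin Fam167a differed from induced controls by -0.38 without passing (adjusted p = 0.255). Against the Trim28 hairpin 2 fell with both hairpins, Tdh by 0.96 and Mtmr9 by 0.39.

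**Figure D4:**
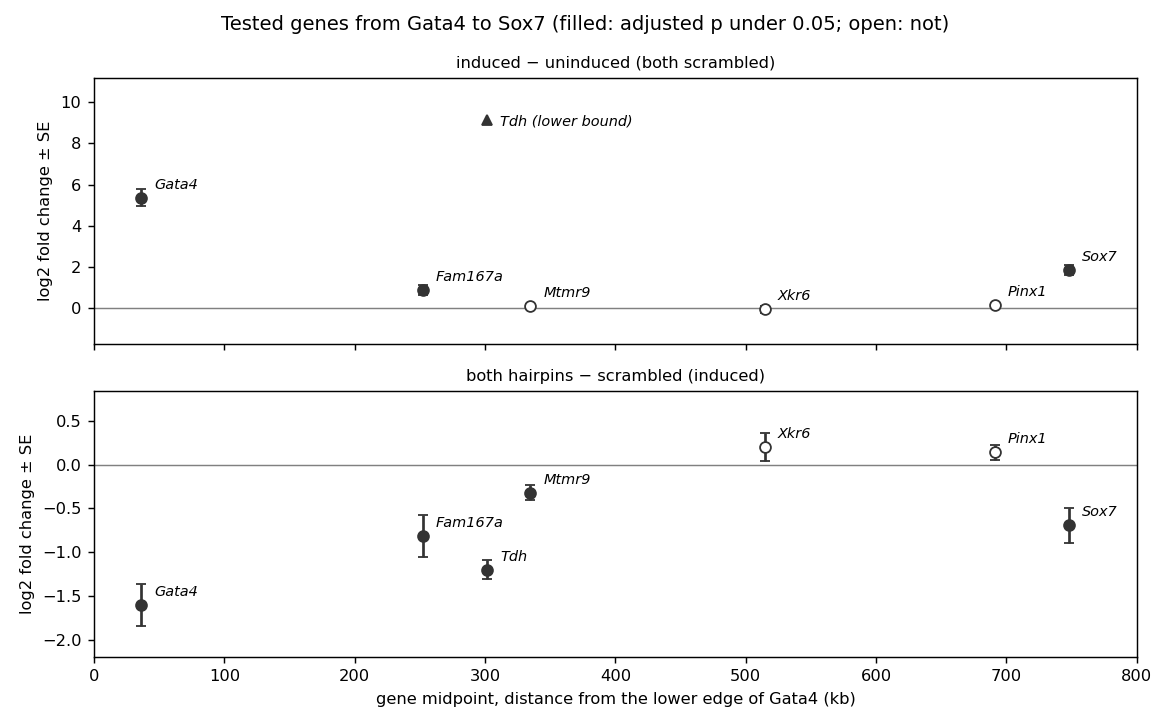
Log2 fold change ± SE of the tested genes from Gata4 to Sox7, placed by the distance of their midpoint from the lower edge of Gata4 in kb, for induction (top) and for both hairpins against induced controls (bottom). Filled points passed at adjusted p under 0.05, and the triangle is a lower bound for Tdh, which had no reads in uninduced cells. Gata4, Fam167a, Tdh and Sox7 lie above 0 in the top panel and below 0 in the bottom panel, and passed in both. Mtmr9 passed only in the bottom panel, and Xkr6 and Pinx1 passed in neither.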

How the data were processed

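RNA was taken with Trizol and made into libraries with a TruSeq kit, per the labels' protocols. The deposited values are raw read counts per gene for 12 libraries, and the submitters' processing notes name TopHat2 2.0.12, Bowtie 1.1 and HTSeq. The genome build and the strand setting of counting are not given in the sources used here. Gene positions are those of the deposited table. Of its 24207 gene IDs, 23882 matched GENCODE M21 (GRCm38), from which exon lengths come, and 23873 of these overlapped their GENCODE position. The members were taken by gene name, and the members and gene lists were chosen with earlier results of these data known. The genes named from each list were drawn from those with the smallest p per comparison, up to 2 called genes in the direction with more calls and 1 in the other, followed through the other comparisons. Marker genes with few reads are named to show the levels at or near 0, with other markers of the same lists beside them. Fgfr1 and Fgfr3 are named beside Fgfr2 as receptors of the same list. A gene with a similar pattern to a member is not reported here.

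Counts were tested with edgeR 4.0.16 (quasi-likelihood, TMM, R 4.3.3) in 1 fit over all 12 libraries, after filterByExpr with a minimum count of 10 left 14520 genes. P-values were adjusted by Benjamini and Hochberg over those genes, with a threshold of 0.05. The script was first tested on simulated data. CPM were computed from the deposited counts, and limits at 0 reads cover counting error only. The 95% intervals of log2 differences use a normal distribution and the SE derived from the test statistic, which includes the spread between libraries. They can be narrower than the quasi-likelihood test implies. Alternatives were size factors of DESeq2 (RLE), DESeq2 1.42.0, limma-voom 3.58.1, no filter and a stricter filter, fits of only the groups compared, a replicate block, and leaving out each library. Same-numbered libraries deviated together between cells with both hairpins and induced controls (correlations of 0.14 to 0.31 in 3 pairs). This is a hint from the same data that the numbers may pair those samples, which the labels do not state. The main fit used no replicate block, and blocking changed no call of a member there.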

Additional observations from a re-analysis of the deposited data

Results flagged for a closer look

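The effects of the hairpins relative to induced controls differed between the 2 hairpin groups for 3 of the endoderm genes, as tested by the direct comparison of both hairpins with the Trim28 hairpin (edgeR quasi-likelihood test, Benjamini-Hochberg adjustment). For Gata4 that log2 difference was -1.27 (adjusted p = 0.00163), with a lower level in 3 of 3 libraries with both hairpins. For Sparc it was 0.44 (adjusted p = 0.00119), with a higher level in 3 of 3 libraries. For Gata6 it was 0.68 (adjusted p = 0.0499), with overlapping libraries and a call that was lost in 8 of 13 other settings.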

How the results depend on the processing

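No called difference of the endoderm genes changed sign in any alternative run. Among those not called, Sparc with the Trim28 hairpin against controls ran from -0.06 to 0.11 and Dab2 with both hairpins against controls from -0.03 to 0.12. The number of tested members called was 4 to 5 on induction, 0 to 1 with the Trim28 hairpin, 2 to 3 with both hairpins against controls and 2 to 3 against the Trim28 hairpin. With the stricter filter it was 4 on induction, 0 with the Trim28 hairpin and 2 with both hairpins against controls, because Sox7 was not tested. On induction every tested member was called in each run. The Gata6 difference between the hairpin groups was not called with RLE (adjusted p = 0.0561), DESeq2 (0.0636), limma-voom (0.0512), the replicate block (0.0605) and without replicate 1 or 2 of the cells with both hairpins or replicate 1 or 3 of the Trim28 hairpin cells (up to 0.195). Sox7 with both hairpins missed the threshold when induced control replicate 3 was left out (adjusted p = 0.053). Over all genes, both hairpins against the Trim28 hairpin gave 3154 calls, 4849 with only those groups in the fit and 1829 to 2843 with 1 library left out. The cause was not tested. With the replicate block, 9572 genes were called on induction, 3864 with the Trim28 hairpin, 5537 with both hairpins against controls and 3399 against the Trim28 hairpin, and it changed no other call of a member. Outside the pair named in the methods, correlations of same-numbered libraries ran from -0.22 to 0.21 on induction, from 0.06 to 0.16 between the Trim28 hairpin and controls and from 0.03 to 0.19 between the hairpin groups. In these, 2, 5 and 5 of 6 libraries correlated best with their own number, a hint from the data, but not every pair exceeded 0.1, so the numbers were not taken to pair the samples. Gata4, Gata6 and Sox7 rest on 437 to 699 reads over 12 libraries, which limits their precision.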
